A study of Rattus norvegicus with 6 samples.

Results

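The genes that copy DNA and the cyclins that time its copying were examined in the lining of the rat oviduct 3 h after mating. Members were chosen by symbol: the subunits of DNA primase, the replicative polymerases, the origin recognition complex, the MCM and GINS helicase proteins, the clamp loader and replication protein A, the cyclins of classes A, B, D, E and G, the numbered cyclin-dependent kinases, ribonucleotide reductase, and Tyms, Pcna and Top2a. Of 14506 genes with a probe set that carries exactly 1 symbol, 81 matched, on 85 probe sets, and where a gene had 2 probe sets the one with the higher mean over all arrays was kept. By role 70 of the 81 belong here. The other 11 match by name only and have none of these roles themselves, though some bind a member. Examples are Cdk5r2, an activator of the neuronal kinase Cdk5, and Poldip3, a polymerase-binding protein that acts on RNA. These 11 are counted apart. Mki67, Mcm3, Mcm4, Mcm9 and Pole2 were not analysed here. Prim1 and Tyms had drawn attention because of their difference between these same arrays, so their differences are given as a description. Counts and intervals that include these 2 are no test of them.

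The 6 adult Sprague-Dawley rats were 3 mated and 3 unmated females, with 1 array for each animal. Mated females were put with a fertile male at 2200 h of pro-estrus, showed spermatozoa or a plug at a check 30 min later, stayed with him and were sampled 3 h after mating. Unmated females stayed isolated, and both groups were sampled at 0130 h of estrus. The samples are whole endosalpinx, a mixture of ciliated and secretory epithelium with underlying stroma, and keratin 8 was bright throughout, at log2 signals of 13.02, 12.92 and 13.11 in mated rats and 12.93, 12.83 and 13.00 in unmated rats. Array values are log2 signals, so a difference of 1 is a doubling. In such bulk tissue fewer cells of a type and less RNA per cell cannot be told apart, and company of a male cannot be told apart from mating.

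DNA replication starts where the origin recognition complex has loaded the MCM helicase. Primase, made of Prim1 and Prim2 and bound to DNA polymerase alpha, lays down the RNA primers from which polymerases delta and epsilon extend, held to the DNA by the Pcna clamp that the Rfc loader places. Cyclins and their kinases drive the entry into S phase and mitosis, and many of these genes are transcribed only in dividing cells, under E2F factors early in the cycle and under complexes that read the CHR element and CCAAT boxes later. In the oviduct lining the ciliated cells have left the cycle.

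RefSeq promoter windows of build GRCr8, 250 bases before to 50 bases after the start of a gene, were at hand for 66 of the 81 members. The E2F type letters TTTCCCGC or TTTGGCGC stood on either strand in 13 of 32 windows of the replication machinery (40.6%), in 0 of 7 cyclin windows and in 0 of 14 kinase windows, against 1.53% of 27457 windows of all genes. CCAAT stood in 62.5% of the machinery's windows and 37.7% of all. The CHR letters TTTGAA stood in 6.25% of the machinery's windows, 1 of 7 cyclin windows and 3 of 14 kinase windows, against 18.1% of all. Ccnb2, Cdk1 and Top2a held them and Ccnb1 did not. Cdk16, Cdk18, Cdk5rap2, Mcm2 and Gins3 held them too. In 11968 windows of measured genes the shares were 2.25% for the E2F type letters, 38.3% for CCAAT and 15.2% for the CHR letters. A match describes the letters of the window only.

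The windows of Prim1, the gene with the largest difference, of its partner Pola1 and of Mcm6, which hold E2F type letters, and of Ccnb2 and Cdk1, which hold CHR letters, are shown 5′ to 3′ in GRCr8. Capitals mark each match of the 3 motifs on either strand, and no matches of different motifs overlap here.
Prim1, chr7:1031212-1031511, plus strand: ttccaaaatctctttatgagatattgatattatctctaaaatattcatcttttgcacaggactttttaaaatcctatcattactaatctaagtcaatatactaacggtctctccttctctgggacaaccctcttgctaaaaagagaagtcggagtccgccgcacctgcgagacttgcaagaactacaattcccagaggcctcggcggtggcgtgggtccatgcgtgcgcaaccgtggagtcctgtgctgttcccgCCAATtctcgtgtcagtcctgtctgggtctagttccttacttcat
Pola1, chrX:62342306-62342605, minus strand: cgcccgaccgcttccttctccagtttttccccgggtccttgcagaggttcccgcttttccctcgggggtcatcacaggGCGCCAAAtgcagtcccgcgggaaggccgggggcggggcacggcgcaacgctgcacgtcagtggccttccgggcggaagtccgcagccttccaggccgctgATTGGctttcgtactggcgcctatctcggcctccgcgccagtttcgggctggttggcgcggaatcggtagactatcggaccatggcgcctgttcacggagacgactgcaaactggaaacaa
Mcm6, chr13:42404303-42404602, minus strand: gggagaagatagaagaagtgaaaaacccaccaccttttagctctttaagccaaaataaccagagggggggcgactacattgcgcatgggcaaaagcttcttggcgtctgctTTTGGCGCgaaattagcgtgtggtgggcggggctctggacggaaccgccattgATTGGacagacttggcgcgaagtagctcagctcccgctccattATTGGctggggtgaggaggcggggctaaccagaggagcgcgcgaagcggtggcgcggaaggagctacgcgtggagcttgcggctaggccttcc
Ccnb2, chr8:79981609-79981908, minus strand: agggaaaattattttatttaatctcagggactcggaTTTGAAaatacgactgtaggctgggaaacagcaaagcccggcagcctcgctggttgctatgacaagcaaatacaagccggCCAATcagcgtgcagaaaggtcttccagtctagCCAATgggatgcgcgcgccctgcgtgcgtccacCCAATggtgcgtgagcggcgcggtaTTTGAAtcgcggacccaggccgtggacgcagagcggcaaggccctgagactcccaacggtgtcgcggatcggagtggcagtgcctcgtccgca
Cdk1, chr20:19265043-19265342, plus strand: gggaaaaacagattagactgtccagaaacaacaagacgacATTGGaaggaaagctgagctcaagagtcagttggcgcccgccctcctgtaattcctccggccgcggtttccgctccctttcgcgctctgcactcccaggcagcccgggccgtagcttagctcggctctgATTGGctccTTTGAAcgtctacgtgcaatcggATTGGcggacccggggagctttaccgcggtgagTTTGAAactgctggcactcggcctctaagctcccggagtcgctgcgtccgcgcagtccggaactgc
In Prim1 the only capitals are a CCAAT just past the start. Running into it are the letters TTCCCGC, which lack only the leading T of TTTCCCGC. Exact matching does not mark such near matches in any window. Pola1 carries TTTGGCGC in reverse and Mcm6 carries it forward. In Ccnb2 a row of 3 CCAAT boxes stands between 2 copies of TTTGAA, and Cdk1 holds 3 CCAAT boxes in reverse and 2 copies of TTTGAA.

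Prim1, the catalytic subunit of primase, had log2 signals of 8.48, 8.59 and 7.74 in mated rats, against 9.34, 8.80 and 9.38 in unmated rats. All 3 mated values lay below all 3 unmated values, the nearest pair being mated replicate 2 and unmated replicate 2, and mated replicate 3 lay well under the other mated arrays. The means were 8.27 ± 0.46 in mated and 9.17 ± 0.32 in unmated rats (SD, n = 3 each), a difference of -0.90 or 1.87-fold less signal in mated rats. Its size ranked 7 among the 14506 genes. Its spread was also wide, with a within-group SD that ranked 155 of 14506. Prim1 rests on a single probe set, which had to differ to be singled out, and in the RefSeq table no gene overlaps it; Naca, a chaperone of nascent proteins, is its neighbour on the right.

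The partners of Prim1 had smaller differences, none of which passed the test. Prim2, the regulatory subunit that binds Prim1 in the primase dimer, had 7.56, 8.0 and 7.54 in mated rats and 7.39, 7.85 and 7.65 in unmated rats. The Prim2 groups overlap in part, with mated replicate 2 above every unmated value and unmated replicate 1 below every mated one, and a log2 fold change of 0.07 (95% confidence interval -0.29 to 0.43). Pola1, the catalytic subunit of polymerase alpha, had 9.0, 8.67 and 8.63 in mated rats and 8.93, 9.07 and 8.91 in unmated rats. Mated replicates 2 and 3 lay below every unmated value of Pola1 and mated replicate 1 did not, and the difference was -0.20 (-0.46 to 0.05), or -0.32 without mated replicate 1 and -0.14 without mated replicate 3. Pola2, the accessory subunit of the same enzyme, had 7.32, 7.46 and 7.53 in mated rats and 7.44, 7.27 and 7.65 in unmated rats, a difference of -0.02 (-0.27 to 0.23). The difference between Prim1 and its partners was not itself tested.

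**Figure D1:**
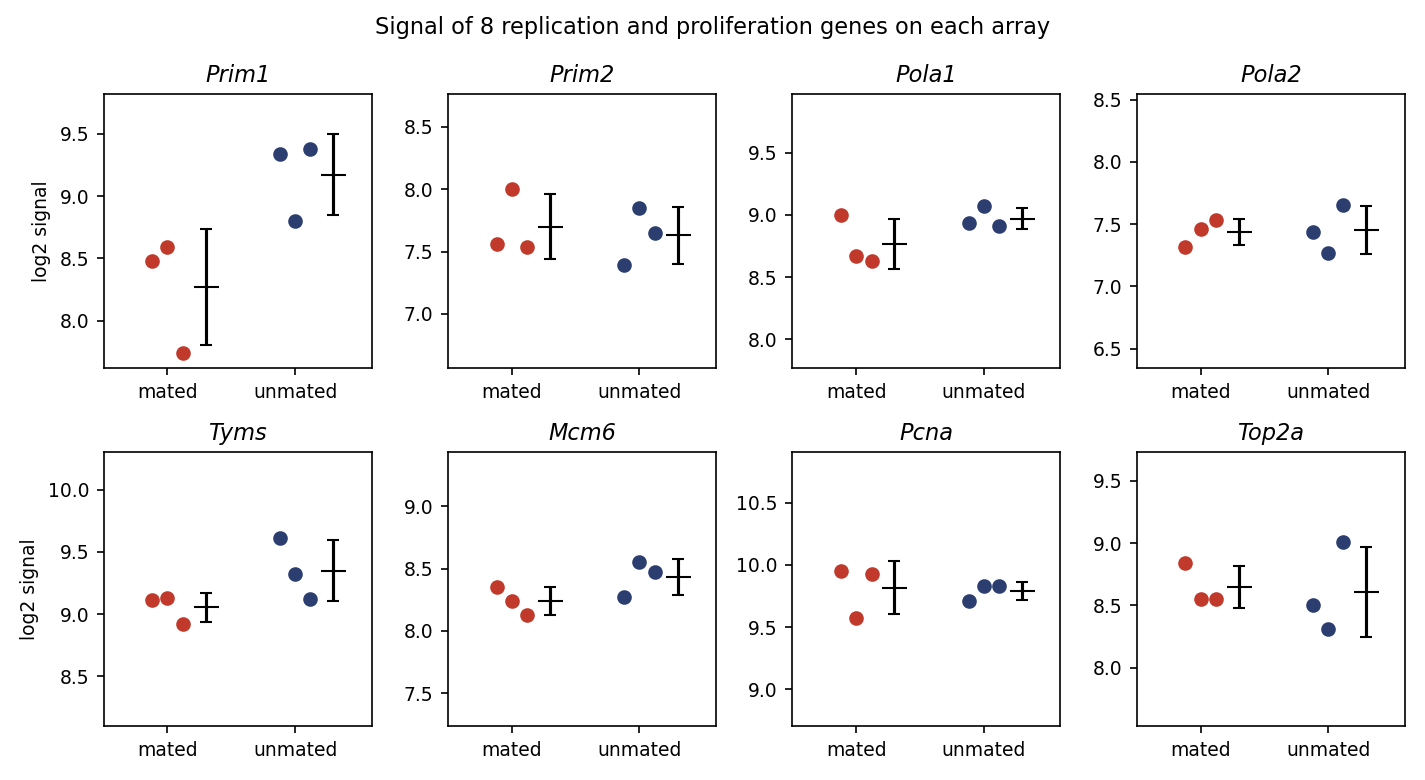
Log2 signal (vertical axis, each panel spanning the same range of log2 units) of 8 genes in 3 mated (red) and 3 unmated (blue) rats, 1 point for each array, with mean and SD beside them in black. Prim1 is the only panel in which the groups do not overlap, and its lowest point is mated replicate 3 at 7.74.

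By likeness over the 6 arrays, which takes in the difference between groups, the genes that followed Prim1 most closely were Anapc7 (Pearson r = 0.988), Uap1l1, Cirbp, Clec4a and Pkdcc (r = 0.956). None of these is a member. Among members Orc2 was the most alike at r = 0.868 and Cdk18 the least at r = -0.850. Anapc7 to Pkdcc are the extremes among all measured genes, and Orc2 and Cdk18 those among members, each over 6 points. With the group means removed, r was 0.987 for Anapc7, 0.737 for Orc2 and -0.477 for Cdk18. All are given as a description only.

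Across the 81 genes no difference between mated and unmated rats passed the threshold: 0 members had an adjusted p under 0.05 by limma, as had 0% of all genes, and the smallest adjusted p among members was 0.984. At an unadjusted p under 0.05, 1 member was higher in mated rats, where 3.02% of all genes were, and 2 were lower, where 1.55% were. The higher one was Cdk5r2, which shares only the name, and the 2 lower ones were Prim1 and Tyms. These 2 were singled out by their difference in these same arrays, and without them the lower count is 0 of 79. The groups did not overlap for 3 members that were higher, Ccng1, Cdk18 and Cdk5r2, against 5.24% of all genes, and for 2 that were lower, Prim1 and Pole, against 3.23%. Counts this small move with single arrays: the 2 lower members became 6 without mated replicate 1, and 1 without mated replicate 2, mated replicate 3 or unmated replicate 2, while the 1 higher member became 3 without unmated replicate 3 and 0 without mated replicate 1, mated replicate 2 or unmated replicate 1. The median log2 fold change of the members was -0.003, beside 0.01 for all genes, and the median size regardless of sign was 0.06 beside 0.07.

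The intervals bound how large a difference these arrays allow. Prim1 and Tyms, singled out by these same arrays, are left aside here. For 78 of the other 79 members the 95% confidence interval lay inside a 1.5-fold change in either direction. That is a share of 98.7%, and the exception was Ccna1. With Prim1 and Tyms counted it was 78 of 81 members, or 96.3%. The share of all genes, whose own extremes are kept, was 95.7%, so the members hardly differ from it. The intervals are not adjusted for the number of genes.

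**Figure D2:**
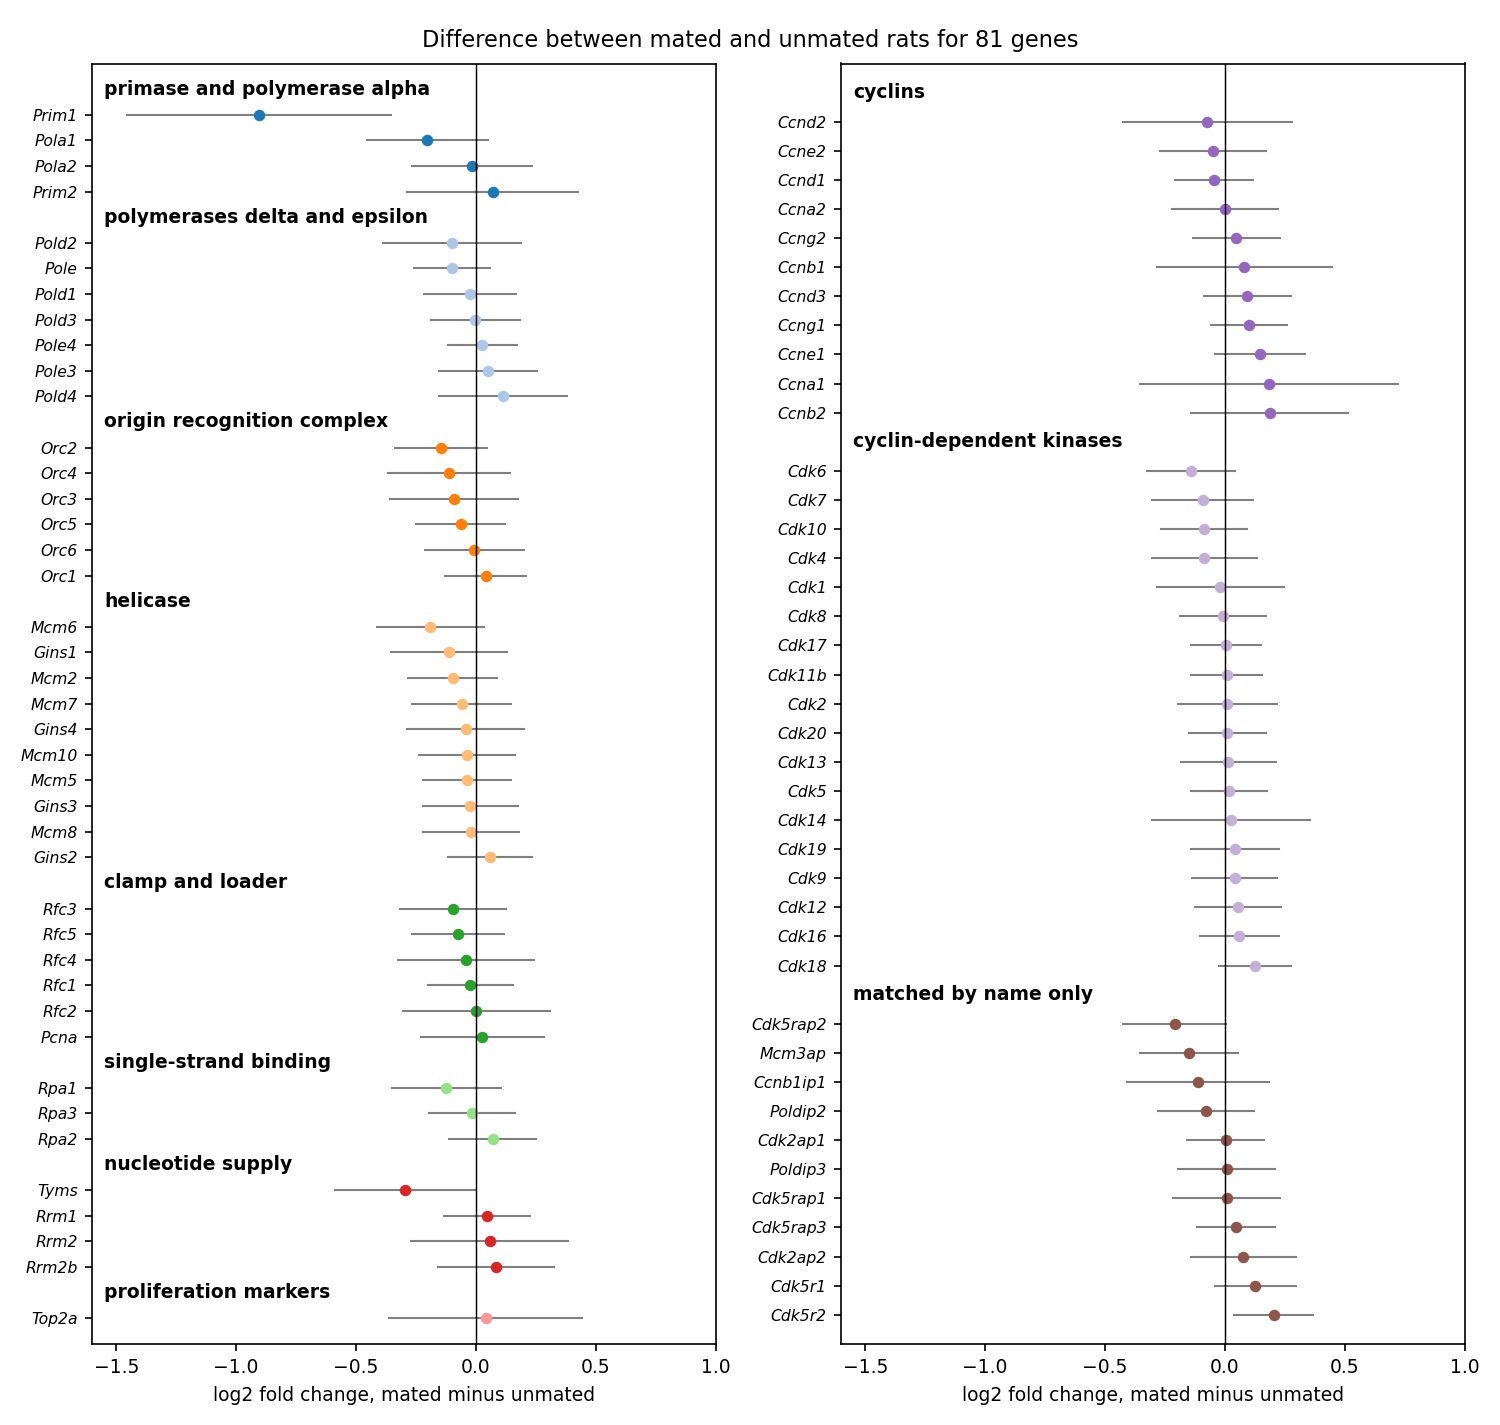
Log2 fold change of mated minus unmated rats (horizontal axis) with its 95% confidence interval for each of the 81 genes, grouped by role, 3 arrays in each group. Prim1 at -0.90 lies apart, and most other intervals cross 0. Prim1 and Tyms were singled out by these same arrays, so their intervals are no test.

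Of the replication machinery 27 of 36 genes had a lower mean in mated rats and 8 a higher one, with a median log2 fold change of -0.04, where 45.5% of all genes were lower. The lower count was 26 after a second quantile normalization, where 48.6% of all genes were lower. It was 28 after centring arrays on their medians, where 52.2% were, and as low as 21 without unmated replicate 3, where 47% were. Of genes above the range of odorant and pheromone receptor genes, as 32 of these 36 were, 49.2% were lower as deposited. Apart from Prim1, 0 of 35 had an unadjusted p under 0.05, where 4.57% of all genes did. Genes of 1 complex can vary together from rat to rat, so these 36 are not separate observations. Between the same groups all 4 measured of 9 listed multiciliogenesis genes had a lower mean in mated rats, with a median of -0.13. They ran from -0.33 for Ccno to -0.03 for Deup1, and the groups overlapped for each. Of 8 secretory epithelium markers 7 had a higher mean, with a median of 0.07. Only C3 at 0.49 and Slpi at 0.36 differed by 0.2 or more. The mean deviations were 0.13, -0.14 and -0.21 in mated rats and -0.10, 0.05 and 0.28 in unmated rats for the first list, and 0.01, 0.11 and 0.11 in mated rats and -0.03, -0.08 and -0.12 in unmated rats for the second. Their part in the machinery's shift was not tested.

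In the origin recognition complex, which marks the sites where copying starts, 5 of 6 subunits had a lower mean. So had 45.5% of all genes. The differences ran from -0.15 for Orc2 to 0.04 for Orc1. Orc2, one of the core subunits, had 9.35, 9.28 and 9.10 in mated rats and 9.44, 9.38 and 9.35 in unmated rats. Its groups touch at 9.35, and the difference was -0.15 (95% confidence interval -0.34 to 0.04), or -0.08 without mated replicate 3. The mean deviation of the 6 subunits from their level over all arrays was 0.07, -0.01 and -0.16 in mated rats and 0.02, 0.10 and -0.03 in unmated rats, so mated replicate 3 was the low one. Orc4, the subunit with the highest signal, had 10.24, 10.13 and 9.87 in mated rats and 10.27, 10.25 and 10.06 in unmated rats, and Orc1, the one with the lowest, had 6.78, 6.88 and 6.77 in mated rats and 6.68, 6.81 and 6.82 in unmated rats. Both overlap between the groups. Without mated replicate 3 only 3 of 6 subunits were lower. Ciliated cell markers lay low on the same array, with mean deviations of 0.15, -0.09 and -0.15 in mated rats and -0.05, 0.14 and 0.01 in unmated rats. They were lower for 10 of 11 genes, or for 7 without mated replicate 2, mated replicate 3 or unmated replicate 2. Their part in the differences of the replication genes was not tested.

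In the helicase group 9 of 10 genes had a lower mean, where 45.5% of all genes had. Mcm6, one of the 6 subunits of the MCM ring, had 8.35, 8.24 and 8.13 in mated rats and 8.27, 8.55 and 8.47 in unmated rats. The groups of Mcm6 overlap by a single pair, mated replicate 1 above unmated replicate 1, and the difference was -0.19 (95% confidence interval -0.41 to 0.03). The other ring subunits measured, Mcm2, Mcm5 and Mcm7, had means of 8.91, 7.71 and 9.06 in mated rats and 9.0, 7.75 and 9.12 in unmated rats, with overlap in each. The 4 GINS subunits, which join the ring to make the active helicase, averaged 5.92, 7.60, 7.28 and 8.26 for Gins1 to Gins4 in mated rats and 6.03, 7.55, 7.31 and 8.30 in unmated rats. Without unmated replicate 3 the lower count of the helicase group was 5 of 10.

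Among the polymerases that extend the strands, Pold4, a small subunit of polymerase delta, differed most at 0.11 (95% confidence interval -0.15 to 0.38). Its mated values of 8.17, 8.21 and 8.25 lay inside the wide unmated range of 7.88, 8.06 and 8.35, and the difference was 0.005 without unmated replicate 1 and 0.24 without unmated replicate 3. Pole, the catalytic subunit of polymerase epsilon, had 7.25, 7.28 and 7.16 in mated rats and 7.29, 7.36 and 7.34 in unmated rats. The groups of Pole just miss each other, with a difference of -0.10 (-0.26 to 0.06) near background. Pole4, a small histone-fold subunit of polymerase epsilon, was nearly constant at 10.94, 10.9 and 10.92 in mated rats and 10.92, 10.86 and 10.9 in unmated rats. The catalytic subunit of polymerase delta, Pold1, averaged 8.22 ± 0.11 in mated and 8.25 ± 0.08 in unmated rats (SD, n = 3 each).

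The clamp Pcna, often read as a sign of proliferation, had 9.95, 9.57 and 9.93 in mated rats and 9.71, 9.83 and 9.83 in unmated rats. Mated rats held both the highest and the lowest value of Pcna, and the difference was 0.03 (95% confidence interval -0.23 to 0.28). Of the 5 loader subunits Rfc3 differed most, at -0.10 (-0.32 to 0.12), with 8.47, 8.40 and 8.47 in mated rats inside 8.38, 8.52 and 8.73 in unmated rats. It was -0.003 without unmated replicate 3 and -0.18 without unmated replicate 1. Rfc1, the large loader subunit, averaged 10.42 ± 0.09 in mated and 10.45 ± 0.06 in unmated rats, and Rfc4, a small one, 7.49 ± 0.22 in mated and 7.53 ± 0.14 in unmated rats (SD, n = 3 each). Rpa1, the large subunit of the protein that coats single-stranded DNA, had 9.43, 9.30 and 9.19 in mated rats and 9.42, 9.58 and 9.29 in unmated rats, a difference of -0.12 (-0.35 to 0.10) that was -0.05 without unmated replicate 2 and -0.19 without unmated replicate 3. Rpa2 and Rpa3, its smaller subunits, averaged 7.98 and 8.82 in mated rats and 7.91 and 8.83 in unmated rats.

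Tyms, the thymidylate synthase that makes the thymine nucleotide for new DNA, had 9.11, 9.13 and 8.92 in mated rats and 9.61, 9.32 and 9.12 in unmated rats. Mated replicate 2 lay just above unmated replicate 3, so the groups of Tyms overlap by that one pair, and the means were 9.05 ± 0.12 in mated and 9.35 ± 0.25 in unmated rats (SD, n = 3 each), a difference of -0.30. Without unmated replicate 1 the difference of Tyms was -0.17, and without unmated replicate 3 it was -0.41. The subunits of ribonucleotide reductase, which makes the deoxynucleotides, had means of 10.53 for Rrm1, 7.20 for Rrm2 and 9.69 for Rrm2b in mated rats and 10.48, 7.14 and 9.61 in unmated rats. All 3 overlapped between the groups. Rrm2, the subunit made in S phase, ranged more widely in unmated rats, at 7.0, 6.93 and 7.49, than in mated rats, at 7.27, 7.17 and 7.15.

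**Figure D3:**
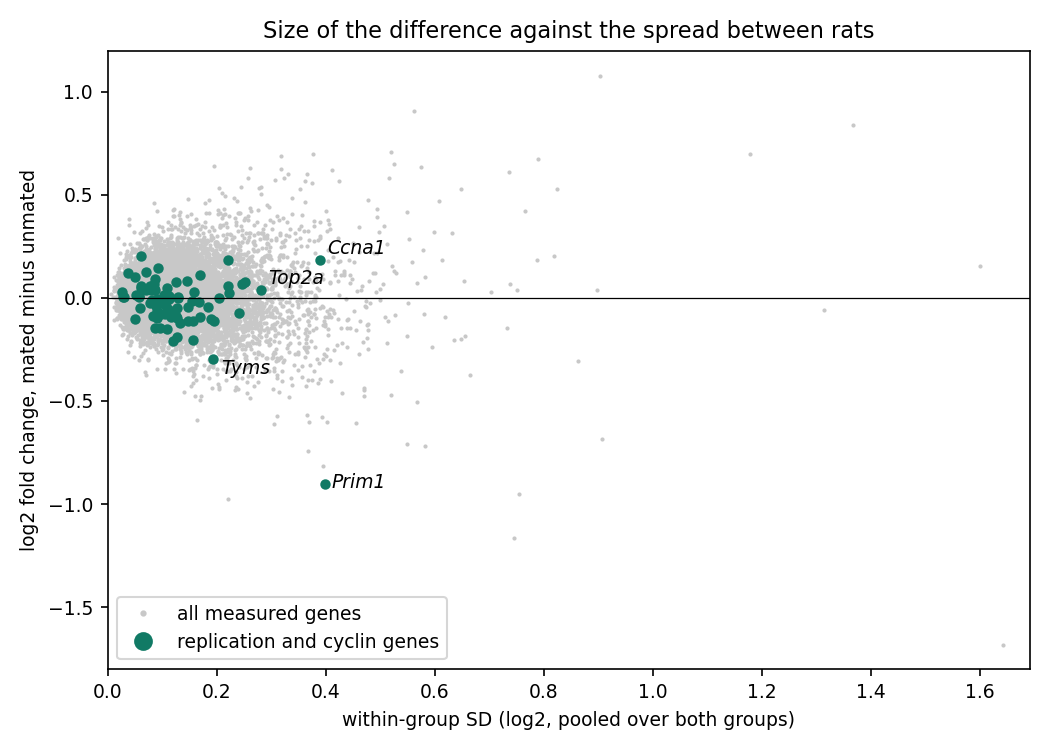
Log2 fold change of mated minus unmated rats (vertical axis) against the within-group SD pooled over both groups (horizontal axis) for all measured genes (grey) and the 81 replication and cyclin genes (green). Prim1, at -0.90, lies below the other green points, and Ccna1, at 0.18, has a spread nearly as wide as that of Prim1.

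The cyclins gave no call either: 7 of 11 had a higher mean in mated rats and 3 a lower one, with a median log2 fold change of 0.08 where that of all genes was 0.01. Without mated replicate 1 the split was 6 to 5 with a median of 0.01, and without unmated replicate 2 it was 6 to 5 with a median of 0.03. Ccnd1, a D cyclin that responds to growth signals, had 11.51, 11.51 and 11.64 in mated rats and 11.59, 11.57 and 11.64 in unmated rats, and its partner kinase Cdk4 averaged 12.03 ± 0.10 in mated and 12.11 ± 0.15 in unmated rats (SD, n = 3 each). Both overlap between the groups. Ccne1 and Ccne2, the E cyclins of S phase entry, lay within the range of odorant and pheromone receptor genes (at or below 7.13), which serves as a guide to background. Ccne1 had 6.42, 6.51 and 6.31 in mated rats and 6.17, 6.3 and 6.33 in unmated rats, which overlap only through mated replicate 3 and unmated replicate 3. Cdk1, Orc1, Gins1, Mcm8, Mcm10 and Ccnb1ip1 lay within that range too, 8 of 81 members in all, and differences of such genes may be understated.

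Ccng1, a cyclin induced by p53, had 11.89, 11.77 and 11.77 in mated rats and 11.73, 11.70 and 11.70 in unmated rats. Every mated value of Ccng1 lay above every unmated one, by a narrow margin, and the difference was 0.10 (95% confidence interval -0.06 to 0.26). Ccna1, the A cyclin best known from male meiosis, was the most variable cyclin, at 9.11, 8.96 and 8.41 in mated rats and 8.25, 8.61 and 9.07 in unmated rats. Its difference of 0.18 (-0.36 to 0.72) was smaller than its SDs of 0.37 and 0.41.

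Among the cyclins and partners of mitosis no difference between the groups passed the test. Ccnb1, which with Cdk1 starts mitosis, had 8.35, 7.92 and 8.01 in mated rats and 7.93, 7.79 and 8.32 in unmated rats. Ccnb2, its close relative, had 8.21, 7.84 and 7.97 in mated rats and 7.90, 7.54 and 8.02 in unmated rats, a difference of 0.19 (95% confidence interval -0.14 to 0.51) that was 0.05 without unmated replicate 2 and 0.09 without mated replicate 1. Top2a, the topoisomerase that untangles chromosomes, had 8.84, 8.55 and 8.55 in mated rats and 8.5, 8.31 and 9.01 in unmated rats. Ccna2, the A cyclin of dividing cells, had 7.55, 7.28 and 7.31 in mated rats and 7.3, 7.34 and 7.5 in unmated rats. Cdk1, the kinase that these cyclins bind, had 7.15, 6.91 and 6.9 in mated rats and 7.02, 6.81 and 7.19 in unmated rats, near background. In Ccnb1, Ccnb2 and Top2a mated replicate 1 and unmated replicate 3 were the high arrays and unmated replicate 2 the lowest, and the difference of Top2a was 0.04 (-0.36 to 0.44). Both probe sets of Ccnb2 ran alike, with differences of 0.19 and 0.17, though 2 pseudogenes of it are listed in RefSeq and copies can share signal.

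Ccna2, Ccnb1, Ccnb2, Cdk1, Top2a and Rrm2 were put together after their values were seen. Their mean deviation was 0.21, -0.08 and -0.04 in mated rats and -0.08, -0.24 and 0.23 in unmated rats. Unmated replicate 2 was the lowest array for 5 of the 6, and mated replicate 1 and unmated replicate 3 were each the highest for 3. A list of other mitosis genes, of which 20 lay above the receptor range, followed a like order, with mean deviations of 0.19, -0.05 and -0.04 in mated rats and -0.06, -0.12 and 0.09 in unmated rats. For 13 of these 20 the highest array was mated replicate 1, which was the highest for 24.7% of all genes. Of the 30 mitosis genes measured 22 had a higher mean in mated rats, or 16 without mated replicate 1 or without unmated replicate 2. An unadjusted p under 0.05 was reached by 0 of the 30, where 4.57% of all genes reached it. Kif23, a motor of cell division, came closest, at 9.39, 9.10 and 8.92 in mated rats and 8.75, 8.82 and 8.99 in unmated rats, a difference of 0.28 that was 0.16 without mated replicate 1.

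Fibroblast markers ran the other way on the same arrays, with mean deviations of -0.20, -0.01 and -0.03 in mated rats and 0.19, 0.16 and -0.10 in unmated rats. All 10 of them had a lower mean in mated rats, where 45.5% of all genes had. The count was 8 after a second quantile normalization and 7 without mated replicate 1 or without unmated replicate 1. Their differences were uneven, from -0.46 for Dpt to -0.01 for Col3a1, and 6 of the 10 were under 0.1 in size. Only for Dpt did the groups not overlap, and 3 of the 10 lay within the receptor range. Simple epithelium markers deviated by -0.02, -0.03 and 0.11 in mated rats and by -0.04, -0.14 and 0.11 in unmated rats, so unmated replicates 2 and 3 were low and high there as well. The part of such shifts in the values of the mitotic genes was not tested.

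**Figure D4:**
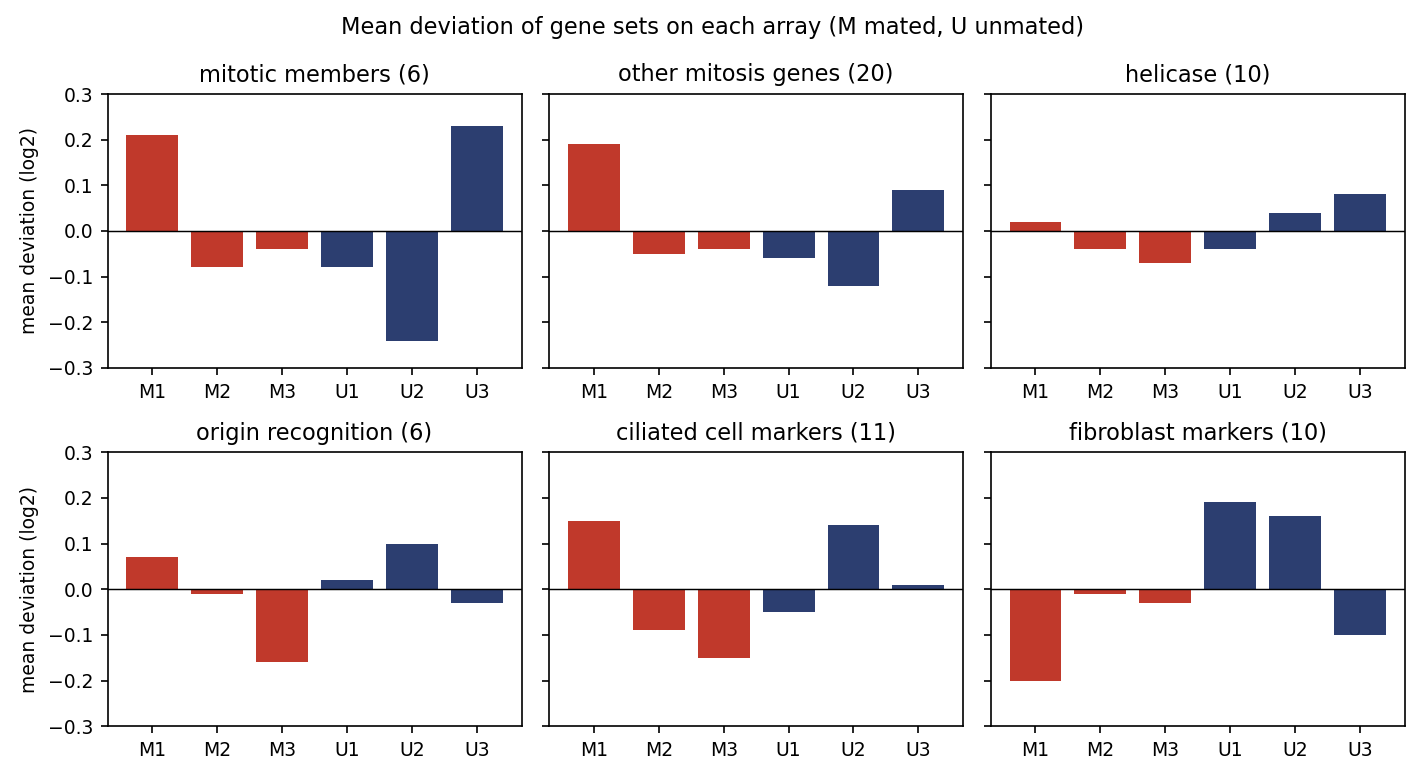
Mean deviation in log2 units (vertical axis) of 6 gene sets from their own mean over the 6 arrays, for mated replicates M1 to M3 (red) and unmated replicates U1 to U3 (blue), with the number of genes in brackets. The mitotic members and the other mitosis genes are high on M1 and U3 and lowest on U2, and fibroblast markers are low on M1 and U3.

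The 18 cyclin-dependent kinases showed little difference. None differed by more than the -0.14 of Cdk6, which had 9.24, 9.36 and 9.32 in mated rats and 9.33, 9.54 and 9.48 in unmated rats, with a 95% confidence interval of -0.33 to 0.04. Cdk18, a kinase of the PCTAIRE group, had 9.70, 9.72 and 9.79 in mated rats and 9.64, 9.59 and 9.61 in unmated rats. Its mated values all lay above its unmated ones, with a difference of 0.12 (-0.03 to 0.27). Means were higher in mated rats for 12 of 18 kinases as deposited and for 6 after median centring or without mated replicate 1, so no direction can be given. The kinases that act on RNA polymerase II, Cdk7, Cdk8, Cdk9, Cdk12, Cdk13 and Cdk19, averaged 10.40, 10.36, 10.54, 10.64, 10.30 and 10.32 in mated rats and 10.50, 10.37, 10.50, 10.59, 10.28 and 10.28 in unmated rats.

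Of the 11 genes that match by name only, Cdk5r2 had 7.88, 7.83 and 7.73 in mated rats and 7.56, 7.64 and 7.63 in unmated rats. Its groups did not overlap, and the difference was 0.20 (95% confidence interval 0.04 to 0.37; adjusted p = 0.984 by limma). Cdk5rap2, a centrosome protein, had 8.83, 8.68 and 8.65 in mated rats and 8.99, 9.03 and 8.77 in unmated rats, a difference of -0.21 (-0.42 to 0.004). Cdk2ap1, which binds Cdk2, averaged 11.39 in mated and 11.39 in unmated rats, and Ccnb1ip1, a ubiquitin ligase of meiosis, 6.48 in mated and 6.6 in unmated rats.

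Other genes of the pathway were taken from lists. Of 26 measured genes of licensing and the fork, 14 had a higher and 12 a lower mean in mated rats, and 2 had an unadjusted p under 0.05, both lower (7.69%, against 1.55% of all genes lower at that p). They were Stn1, which with Ctc1 and Ten1 recruits polymerase alpha and primase to telomeres, and Uhrf1, which guides DNA methylation to new strands. Stn1 had 9.29, 9.17 and 9.26 in mated rats and 9.54, 9.44 and 9.41 in unmated rats, with no overlap and a difference of -0.22 (95% confidence interval -0.39 to -0.06). Its partners Ctc1 and Ten1 overlapped between the groups, with differences of 0.04 and -0.01. Uhrf1 had 7.81, 7.73 and 7.65 in mated rats and 7.81, 7.96 and 7.99 in unmated rats, and the groups touch at 7.81. Among 7 inhibitors of cyclin-dependent kinases, Cdkn2b, the p15 inhibitor of Cdk4 and Cdk6, had 8.93, 8.99 and 8.95 in mated rats and 8.69, 8.73 and 8.88 in unmated rats, the only one of the 7 at an unadjusted p under 0.05, where 3.02% of all genes were higher, with a difference of 0.19 (0.02 to 0.36). Of 10 measured of 17 listed RB and E2F regulators, 5 were higher and 5 lower. Among these 10, 0 had an unadjusted p under 0.05, where 4.57% of all genes did. None of these genes passed the adjusted threshold by limma.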

How the data were processed

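RNA of the endosalpinx of 6 rats was hybridised to Affymetrix arrays after whole-transcript labelling of 0.3 µg total RNA, per the labels. The deposited table gives each probe set a log2 signal on every array, and nothing further was normalized; the log2 scale was read from the range, 1.36 to 14.65. Per the submitters' processing notes the authors used RMA and Affymetrix Expression Console; roles, versions and genome build are not given in the sources used here. RMA gives arrays like distributions, so a shift of most genes 1 way would not show. Depth has no meaning for arrays: their number limits the precision.

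Of 29214 probe sets 15310 had exactly 1 symbol in the annotation given, 323 several and 13581 none listed. All 81 members have their symbol in the RefSeq table of GRCr8, 17 of them beside named pseudogenes whose signal may be shared. Mated minus unmated differences were fitted by limma 3.58.1 in R 4.3.3 (lmFit, eBayes) over all 14506 genes, with Benjamini-Hochberg adjustment, a threshold of 0.05 and two-sided tests. Replicates are separate animals. The procedure was tested on simulated arrays with genes shifted by a doubling in either direction, more than any member differed. That test does not cover smaller differences. Members and lists were chosen with earlier results of these data known. The rule named Prim1, its partners, Top2a, Pcna, Tyms, members at an unadjusted p under 0.05 or without overlap at a difference of at least 0.2, and in each role the largest difference and the brightest and dimmest member; others named were chosen after their values were seen. Cdk11b was counted with the kinases. Alternatives are given in the closing section.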

Additional observations from a re-analysis of the deposited data

How the results depend on the processing

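No gene passed the adjusted threshold under any of 15 alternatives by limma, and the difference of Prim1, whose sign cannot turn when arrays of groups that do not overlap are left out, ran from -1.09 without unmated replicate 2 to -0.64 without mated replicate 3. Leaving out 1 array at a time gave 0 to 3 members higher and 1 to 6 lower at an unadjusted p under 0.05, 3 to 9 higher and 2 to 11 lower without overlap (fewer arrays make separation easier), and 432 to 1403 genes of all at that p, where all arrays gave 663. The highest of these, 1403, came without mated replicate 1 and the lowest, 432, without unmated replicate 2. With array weights 1207 genes and 7 lower members reached it. Without the dimmest 50% of genes, which leaves 52 members to test, 262 genes and 0 higher members did, and 1 lower member had no overlap; after median centring 4 had none. Some signs turned: Pola2 was at 0.042 with array weights, and without single arrays Pcna ranged from -0.04 to 0.15, Pola2 from -0.11 to 0.082, Prim2 from -0.08 to 0.18, Top2a from -0.11 to 0.24 and Ccna1 from -0.013 to 0.40. The labels number replicates alike in both groups. Deviations of same-numbered arrays correlated at 0.004, -0.083 and 0.074, and those of differently numbered arrays at -0.131 to 0.136. So few correlations neither show nor exclude a pairing. With the replicate block 3 lower members and 1 higher reached an unadjusted p under 0.05. The cause of these shifts was not tested.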
